A study of Homo sapiens with 12 samples.

Results

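The 9 genes described are CDKN1A, MDM2, BBC3, BAX, FAS, SESN1, TP53I3 and ZMAT3, which are textbook transcriptional targets of the tumour suppressor p53, and GDF15, a secreted stress cytokine that p53 can also induce. They were taken by gene symbol out of the 57152 genes with values, and all 9 had a mean level of 1 TPM or more, the filter for testing, which 13968 genes passed. The data are 12 libraries of stranded mRNA from human cell lines, in 4 groups of 3. LB cells were given 10 µM amiodarone for 24 h after seeding with 10 mg/ml hydroxypropyl-beta-cyclodextrin (HPbCD) 24 h earlier (LB amiodarone plus HPbCD), amiodarone without HPbCD (LB amiodarone), or 0.1% DMSO as vehicle (LB DMSO), and A549 cells were given the same vehicle (A549 DMSO). No DMSO percentage is recorded for the groups with amiodarone. A549 is a human lung adenocarcinoma line. The labels name A549 as the source of LB cells and say nothing more of how LB cells were made, or whether they are 1 clone. No LB cells with HPbCD alone and no A549 cells with amiodarone were analysed here. Any difference with HPbCD therefore belongs to drug-treated LB cells.

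p53 is a transcription factor that DNA damage and other stresses stabilise. Among its targets, p21 (CDKN1A) halts the cell cycle, PUMA (BBC3), BAX and FAS promote apoptosis, sestrin 1 and TP53I3 act in nutrient and redox control, ZMAT3 binds RNA, and MDM2 returns to p53 as the ubiquitin ligase that degrades it. GDF15 circulates, lowers appetite through the receptor GFRAL in the brainstem, and is induced by p53 and, separately, by the transcription factors ATF4 and CHOP (DDIT3) of the integrated stress response. A549 cells are known to have lost CDKN2A, whose ARF product restrains MDM2. CDKN2A was listed at 0 in all 12 libraries. Amiodarone is a cationic amphiphilic antiarrhythmic drug that accumulates in lysosomes, and HPbCD is a sugar ring that binds cholesterol.

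GDF15 was the member that passed the test in every comparison, each time higher in the first-named group. It averaged 749 TPM in LB amiodarone plus HPbCD, 509 TPM in LB amiodarone, 297 TPM in LB DMSO and 79.2 TPM in A549 DMSO. CDKN1A was 2.66-fold higher in LB DMSO than in A549 DMSO, and none of its 3 differences among the LB groups passed the test. A fit of the LB libraries alone with a replicate block, chosen after seeing the data, did call all 3. The model of all 12 libraries with that block called none of them. TP53I3 was lower in LB amiodarone plus HPbCD than in LB DMSO. MDM2, BBC3, FAS and ZMAT3 did not pass the test in any of the 4 comparisons in the main model.

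The sequence before the transcription start is shown for the 5 members that passed a test in some comparison, so that the letters around their starts can be read beside the values, and for MDM2, whose inner promoter is the classical p53-responsive one. Each run is the 250 bases before a RefSeq start on GRCh38.p14, 5′ to 3′ on the gene's own strand. RefSeq windows were found for 9 of 9 members, 17 windows in all. Capitals mark matches on either strand to the motifs searched, which were the p53 decamer and the p53 full site (2 decamers up to 13 bases apart, with at most 2 mismatches in all), the E-box core CACGTG that MYC and TFEB bind, the GC box GGGCGG of SP1 and the TATA box TATAAA. The composite element TGATGNAA of ATF4 and the cyclic AMP element TGACGTCA were searched too. A decamer searched alone had to match exactly, and in a full site no mismatch was allowed at the core C and G of a decamer. A full site can thus hold no exact decamer, and where it does hold one the matches overlap. The windows lie at chr6:36678464-36678713 (plus strand) for CDKN1A, chr12:68808767-68809016 (plus) for the third of 4 MDM2 starts, chr19:48954625-48954874 (plus) for BAX, chr6:109008989-109009238 (minus) for the third of 3 SESN1 starts, chr2:24084835-24085084 (minus) for TP53I3 and chr19:18385908-18386157 (plus) for GDF15.
CDKN1A: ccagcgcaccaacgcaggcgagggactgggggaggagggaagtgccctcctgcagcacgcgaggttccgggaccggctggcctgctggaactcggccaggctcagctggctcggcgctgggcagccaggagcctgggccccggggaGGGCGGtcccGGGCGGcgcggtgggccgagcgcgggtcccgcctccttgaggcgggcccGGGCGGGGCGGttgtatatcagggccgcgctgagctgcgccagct
MDM2: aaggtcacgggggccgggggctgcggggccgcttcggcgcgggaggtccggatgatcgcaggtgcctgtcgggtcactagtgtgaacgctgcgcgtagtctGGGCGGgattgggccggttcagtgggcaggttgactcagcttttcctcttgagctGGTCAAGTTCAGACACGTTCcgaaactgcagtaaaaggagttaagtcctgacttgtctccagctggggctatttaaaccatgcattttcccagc
BAX: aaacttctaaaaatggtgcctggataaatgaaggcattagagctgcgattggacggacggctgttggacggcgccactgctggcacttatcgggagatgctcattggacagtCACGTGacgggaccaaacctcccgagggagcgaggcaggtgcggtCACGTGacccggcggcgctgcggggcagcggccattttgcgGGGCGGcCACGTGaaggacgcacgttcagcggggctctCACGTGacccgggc
SESN1: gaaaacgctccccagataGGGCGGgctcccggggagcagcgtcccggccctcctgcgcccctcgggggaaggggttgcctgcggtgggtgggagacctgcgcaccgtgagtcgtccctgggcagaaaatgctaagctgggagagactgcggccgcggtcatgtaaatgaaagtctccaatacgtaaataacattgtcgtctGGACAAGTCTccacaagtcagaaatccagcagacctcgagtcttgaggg
TP53I3: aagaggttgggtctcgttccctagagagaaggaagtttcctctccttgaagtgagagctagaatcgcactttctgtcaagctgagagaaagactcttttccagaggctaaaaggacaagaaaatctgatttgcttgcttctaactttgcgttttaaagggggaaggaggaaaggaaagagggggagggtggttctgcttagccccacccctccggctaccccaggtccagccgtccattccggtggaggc
GDF15: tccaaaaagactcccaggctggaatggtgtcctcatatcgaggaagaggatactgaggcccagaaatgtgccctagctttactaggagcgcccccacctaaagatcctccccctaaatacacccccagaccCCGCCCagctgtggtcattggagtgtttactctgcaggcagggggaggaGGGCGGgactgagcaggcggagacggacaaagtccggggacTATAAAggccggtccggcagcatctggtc

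The MDM2 window held a p53 full site at bases -94 to -75 from the start, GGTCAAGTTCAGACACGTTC, with 2 mismatches and no gap. Such a site was in 2.49% of 34943 windows of the same length. MDM2 starts 1 and 2 had none, and start 4, whose window overlaps the one shown, had the same site. The SESN1 window held 1 decamer, GGACAAGTCT at -49 to -40, a motif found in 5.58% of windows. SESN1 starts 1 and 2, not shown, held no decamer and had 7 and 5 copies of GGGCGG. The shares are per window, and a gene with several windows has more places for a match. Of the other members, FAS had a decamer and a full site before its second start. No exact decamer was found in the windows of MDM2, CDKN1A, GDF15, BAX, BBC3, TP53I3 or ZMAT3, which says only that these letters are not in this stretch.

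The CDKN1A window held 4 copies of GGGCGG, the last pair overlapping by 1 base, and GGGCGG was in 42.5% of all windows. BAX had 4 copies of CACGTG, which 6.32% of windows hold at all. GDF15 had TATAAA at -29 to -24, found in 10.8% of windows, and 2 copies of GGGCGG. Neither the ATF4 composite element nor the cyclic AMP element was in any of the 17 windows, against 3.15 and 1.63% of all windows. The TP53I3 window held none of the motifs searched.

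The expression unit was TPM, the relative abundance of a gene's transcripts scaled by their length, which allows levels of different genes to be set side by side. Differences below are on the log2(TPM + 1) scale and come from 1 limma model of all 12 libraries, with p-values adjusted by the Benjamini-Hochberg method over the 13968 genes and a threshold of 0.05. TPM sums were 999449 to 999632 per library and keep no read depth, so neither depth nor counting error is known. Library pairs within a group correlated at 0.985 to 0.989 across genes, and no library stood apart by that measure. Nothing in the labels names separate cultures, so each p-value reflects library-to-library spread that could be technical. Of 7 epithelial markers, all were above 0 in the LB groups, and SFTPB was at 0 in A549 DMSO. In LB DMSO against A549 DMSO 2 passed the test as higher, SFTPB (247 TPM in LB DMSO) and SFTPC (590 against 0.46 TPM). The other 5 were lower, among them KRT8 (1674 against 3994 TPM) and KRT18 (1329 against 3211 TPM). These keratins made up most of the summed level, so the sum does not show the rise of SFTPB and SFTPC. The summed level of the 7 was 3317 to 3906 TPM in LB amiodarone plus HPbCD, 3399 to 3847 TPM in LB amiodarone, 3653 to 4146 TPM in LB DMSO and 7254 to 7791 TPM in A549 DMSO. The 3 leukocyte markers summed to 0.79 to 1.04 TPM, 1.18 to 2.35 TPM, 2.28 to 2.98 TPM and 3.05 to 5.72 TPM in the same order of groups, nearly all of it CD14, with CD3E at 0 in all libraries. CD14 was lower in LB DMSO than in A549 DMSO by 0.68 (adjusted p = 0.0246) and in LB amiodarone plus HPbCD than in LB DMSO by 0.88 (adjusted p = 0.0124), and its part in the results was not tested. The 3 endothelial markers together reached at most 0.85 TPM. The 3 fibroblast markers summed to 2.83 to 4.54 TPM, 6.99 to 9.91 TPM, 8.67 to 9.30 TPM and 3.45 to 5.25 TPM in the same order of groups. In bulk RNA, fewer cells with a transcript and less of it per cell cannot be told apart.

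**Figure D1:**
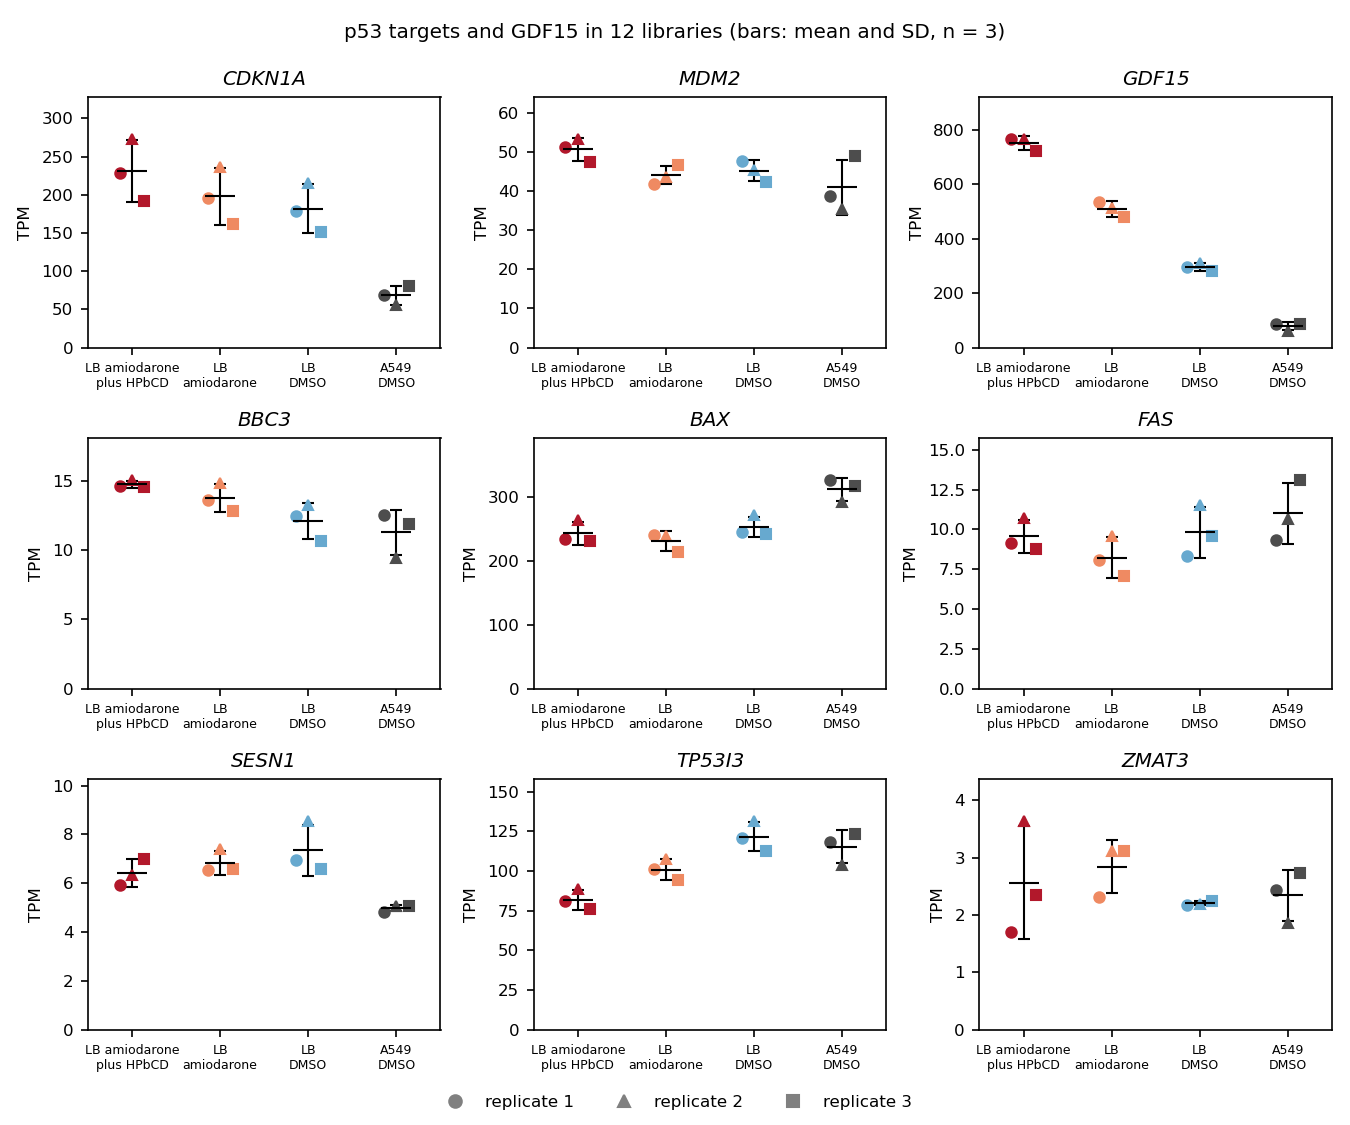
TPM of each of the 9 members (linear axes from 0) in the 4 groups, with 1 point per library, the marker shape giving the replicate number, and bars for the mean and SD (n = 3). GDF15 averages 749, 509, 297 and 79.2 TPM in the groups from left to right with no overlap between them, and CDKN1A is set apart in A549 DMSO at 55.7 to 80.3 TPM.

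CDKN1A encodes p21, an inhibitor of cyclin-dependent kinases, and lies on chromosome 6 at 36676460 to 36687339 on the plus strand (GENCODE 29, GRCh38). It measured 228, 273 and 192 TPM in LB amiodarone plus HPbCD, 196, 236 and 162 TPM in LB amiodarone, 178, 216 and 152 TPM in LB DMSO, and 68.8, 55.7 and 80.3 TPM in A549 DMSO. Every LB library lay above every A549 library, while the 3 LB groups overlapped. Means were 231 ± 40.8, 198 ± 37.0, 182 ± 32.1 and 68.3 ± 12.3 TPM (SD, n = 3 each) in that order of groups. LB DMSO was higher than A549 DMSO by 1.40 ± 0.18 (log2, SE; adjusted p = 6.62e-05), which ranked 166 among the 13968 genes by size of rise.

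Among the LB groups, the CDKN1A difference of LB amiodarone from LB DMSO was 0.12 (95% interval -0.27 to 0.50, adjusted p = 0.757). That of LB amiodarone plus HPbCD was 0.22 against LB amiodarone (-0.16 to 0.61, adjusted p = 0.561) and 0.34 against LB DMSO (-0.04 to 0.73, adjusted p = 0.206). CDKN1A varied between libraries of 1 group, with coefficients of variation of 17.7 to 18.7% in the 4 groups. Replicate 2 was the highest and replicate 3 the lowest in each LB group, while in A549 DMSO replicate 3 was the highest and replicate 2 the lowest. Among LB libraries with the same number, LB amiodarone plus HPbCD was the highest and LB DMSO the lowest in all 3 sets. A limma fit of the LB libraries alone with a replicate block, chosen after seeing the data, gave these 3 differences adjusted p-values of 0.0392, 0.00496 and 0.000229. Without the block that fit called none of them. Whether the numbers mark pairs is not settled by the labels.

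MDM2, the ubiquitin ligase that degrades p53, lies on chromosome 12 at 68808176 to 68850686 (plus strand). Its levels were 51.3, 53.3 and 47.5 TPM in LB amiodarone plus HPbCD, 41.9, 43.7 and 46.6 TPM in LB amiodarone, 47.8, 45.4 and 42.4 TPM in LB DMSO, and 38.7, 35.4 and 49.0 TPM in A549 DMSO. The groups overlapped except LB amiodarone plus HPbCD, whose lowest library was just above the highest of LB amiodarone. Differences were 0.15 for LB DMSO against A549 DMSO (adjusted p = 0.291), -0.04 for amiodarone (adjusted p = 0.882), 0.20 for HPbCD added to amiodarone (adjusted p = 0.333) and 0.16 for both against LB DMSO (adjusted p = 0.3). Without A549 DMSO replicate 3, its highest library, the difference of LB DMSO from A549 DMSO was 0.28 with an adjusted p of 0.0172. A processed pseudogene inside MDM2 on the same strand, AC025423.2, was listed at 20.4 to 26.8 TPM, and AC025423.4 on the opposite strand at 9.16 to 12.2 TPM, so how reads were divided there makes the MDM2 level less certain.

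BBC3 (PUMA) is a BH3-only protein that sets off mitochondrial apoptosis, on chromosome 19 at 47220822 to 47232766 (minus strand). It read 14.6, 15.0 and 14.6 TPM in LB amiodarone plus HPbCD, 13.6, 14.8 and 12.8 TPM in LB amiodarone, 12.5, 13.2 and 10.7 TPM in LB DMSO, and 12.5, 9.44 and 11.8 TPM in A549 DMSO. LB amiodarone plus HPbCD lay above all LB DMSO libraries, by 0.27 (0.04 to 0.50), but did not pass the test (adjusted p = 0.103). When A549 DMSO replicate 2 was left out its adjusted p was 0.0489. The other 3 comparisons gave 0.10 to 0.17 with adjusted p of 0.373 to 0.702, and their groups overlapped.

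BAX, the pore-forming effector of mitochondrial apoptosis, lies on chromosome 19 at 48954815 to 48961798 (plus strand) and was, with GDF15 and CDKN1A, among the abundant members. Its values were 235, 263 and 230.5 TPM in LB amiodarone plus HPbCD, 239.6, 239 and 213 TPM in LB amiodarone, 245, 271 and 242 TPM in LB DMSO, and 326, 292 and 316 TPM in A549 DMSO. All LB libraries were below all A549 libraries. LB DMSO was lower than A549 DMSO by 0.30 on the log2 scale, at 0.811 of its mean (SE 0.07, adjusted p = 0.00501). LB amiodarone lay below LB DMSO without overlap, yet the difference of -0.13 did not pass the test (adjusted p = 0.283). With HPbCD the differences were 0.07 against LB amiodarone (adjusted p = 0.644) and -0.06 against LB DMSO (adjusted p = 0.61).

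FAS is the death receptor of the cell surface, on chromosome 10 at 88990582 to 89015785 (plus strand). It gave 9.15, 10.7 and 8.77 TPM in LB amiodarone plus HPbCD, 8.06, 9.58 and 7.05 TPM in LB amiodarone, 8.33, 11.5 and 9.61 TPM in LB DMSO, and 9.33, 10.6 and 13.1 TPM in A549 DMSO. All 4 groups overlapped, and adjusted p-values ran over 0.391 to 0.916. FAS shares 758 bases with ACTA2 on the opposite strand, which was listed at 10.4 to 23.3 TPM, and no source used here says whether counting used the strand. Its ligand gene FASLG did not exceed 0.03 TPM in any library.

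SESN1, sestrin 1, restrains the growth kinase mTORC1 and lies on chromosome 6 at 108986437 to 109094819 (minus strand). It was 5.91, 6.33 and 7.01 TPM in LB amiodarone plus HPbCD, 6.52, 7.41 and 6.57 TPM in LB amiodarone, 6.93, 8.55 and 6.59 TPM in LB DMSO, and 4.83, 5.06 and 5.05 TPM in A549 DMSO. Every LB library exceeded every A549 library, and the LB groups overlapped. SESN1 was 1.48-fold higher in LB DMSO than in A549 DMSO, with a log2 difference of 0.48 ± 0.11 (SE, adjusted p = 0.00417). Among LB groups its differences were -0.09 for LB amiodarone against LB DMSO, -0.08 for LB amiodarone plus HPbCD against LB amiodarone and -0.17 for LB amiodarone plus HPbCD against LB DMSO, with adjusted p of 0.687, 0.76 and 0.307.

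TP53I3 (PIG3), a quinone oxidoreductase-like enzyme tied to oxidative stress, lies on chromosome 2 at 24077433 to 24085861 (minus strand). Its levels were 81.0, 88.4 and 75.7 TPM in LB amiodarone plus HPbCD, 101, 107 and 94.0 TPM in LB amiodarone, 121, 132 and 113 TPM in LB DMSO, and 119, 103 and 124 TPM in A549 DMSO. The 3 LB groups did not overlap one another and the lowest was that with drug and HPbCD, while LB DMSO and A549 DMSO overlapped. LB amiodarone plus HPbCD fell to 81.7 ± 6.34 TPM, against 122 ± 9.36 TPM in LB DMSO (SD, n = 3 each), which is 0.671 of its mean. The log2 difference was -0.57 (adjusted p = 0.000539). Each step alone missed the threshold, at -0.27 (-0.45 to -0.09, adjusted p = 0.0664) for LB amiodarone against LB DMSO and -0.30 (-0.48 to -0.12, adjusted p = 0.0677) for LB amiodarone plus HPbCD against LB amiodarone. Leaving out A549 DMSO replicate 2, with the genes tested kept the same, gave adjusted p-values of 0.0386 and 0.0353. Among those genes that library enters these comparisons only through the pooled spread. A fit of the 9 LB libraries alone, chosen after seeing the data, gave 0.0493 and 0.0485.

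ZMAT3, an RNA-binding zinc finger protein that p53 induces, lies on chromosome 3 at 179017223 to 179072279 (minus strand) and was the least abundant member. It gave 1.70, 3.64 and 2.35 TPM in LB amiodarone plus HPbCD, 2.31, 3.11 and 3.11 TPM in LB amiodarone, 2.18, 2.19 and 2.24 TPM in LB DMSO, and 2.43, 1.86 and 2.73 TPM in A549 DMSO. The LB amiodarone libraries all lay above those of LB DMSO, with a difference of 0.26 (adjusted p = 0.463), and the other groups compared overlapped. Adjusted p-values of the other 3 comparisons ran over 0.714 to 0.862.

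GDF15, growth differentiation factor 15, is a member of the TGF-beta superfamily on chromosome 19 at 18374731 to 18389176 (plus strand). Its libraries read 764, 765 and 719.6 TPM in LB amiodarone plus HPbCD, 536, 514 and 477 TPM in LB amiodarone, 297, 311 and 281 TPM in LB DMSO, and 86.9, 62.6 and 88.1 TPM in A549 DMSO. The 4 groups were separate, with no library of one inside the range of another. Means were 749 ± 25.9, 509 ± 29.5, 297 ± 15.2 and 79.2 ± 14.4 TPM (SD, n = 3 each) in the same order.

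LB DMSO exceeded A549 DMSO 3.74-fold, by 1.91 ± 0.11 (log2, SE; adjusted p = 5.46e-08). LB amiodarone exceeded LB DMSO 1.72-fold, by 0.78 (adjusted p = 0.000722). HPbCD added to amiodarone gave 1.47-fold more than amiodarone alone, by 0.56 (adjusted p = 0.0109). Without LB amiodarone replicate 3 that last difference was 0.51 and missed the threshold (adjusted p = 0.0559). LB amiodarone plus HPbCD exceeded LB DMSO 2.53-fold, by 1.34 (adjusted p = 3.55e-06). The comparisons share groups, so these values are not independent of each other. In every library GDF15 was the most abundant member, as TPM, except in A549 DMSO, where BAX was.

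**Figure D2:**
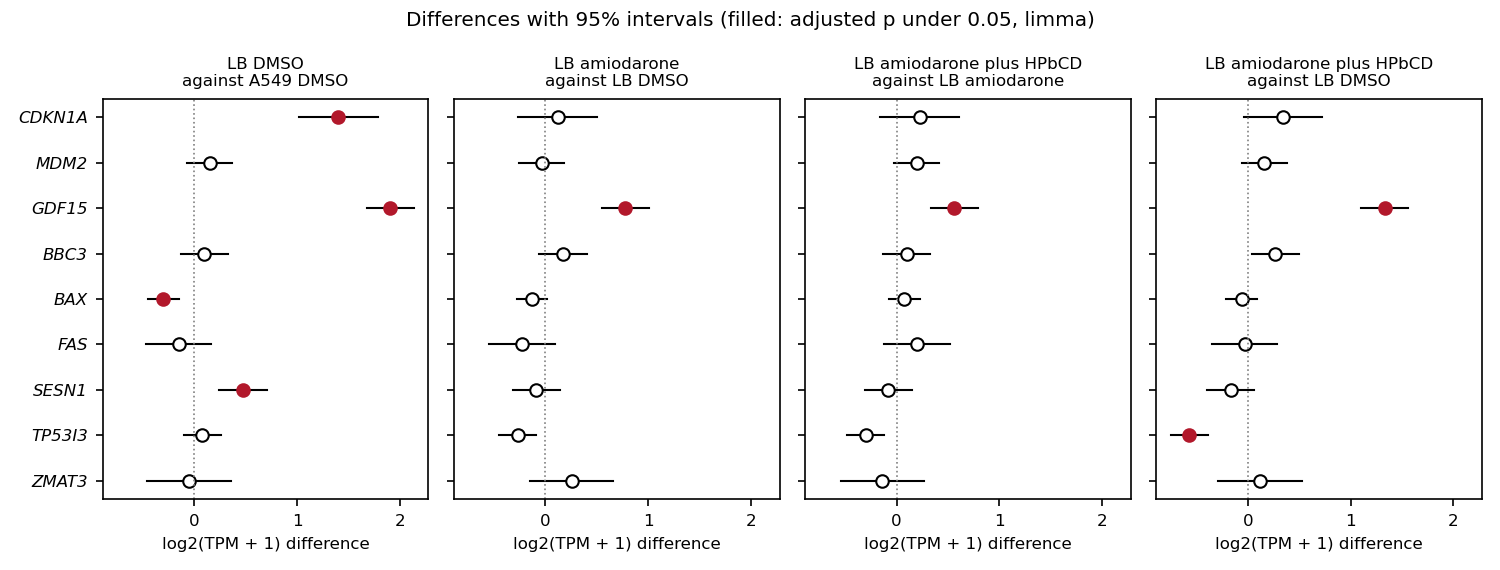
Differences of the 9 members on the log2(TPM + 1) scale with 95% intervals in the 4 comparisons, filled where the limma adjusted p was under 0.05. GDF15 is filled in all 4 panels, CDKN1A, BAX and SESN1 in LB DMSO against A549 DMSO alone, and TP53I3 at -0.57 in LB amiodarone plus HPbCD against LB DMSO alone.

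For LB DMSO against A549 DMSO, 3 of the 9 members were higher (CDKN1A, GDF15, SESN1), 1 was lower (BAX) and 5 did not pass the test, beside 32.4% of all genes tested that passed it, 14.2% higher and 18.2% lower. The groups did not overlap for 4 members (CDKN1A, GDF15, SESN1, BAX), beside 43.7% of all genes. For LB amiodarone against LB DMSO, 1 member was higher and 8 did not pass, beside 8.62% of all genes, 4.90% higher and 3.72% lower. Here the groups did not overlap for 4 members (GDF15, BAX, TP53I3, ZMAT3), beside 30.0% of all genes. For LB amiodarone plus HPbCD against LB amiodarone, again 1 was higher and 8 did not pass, beside 4.07% of all genes, 2.71% higher and 1.36% lower. Its groups did not overlap for 3 members (GDF15, MDM2, TP53I3), beside 25.1%. For LB amiodarone plus HPbCD against LB DMSO, 1 was higher, 1 was lower and 7 did not pass, beside 17.9% of all genes, 10.1% higher and 7.81% lower. Without overlap were 3 members (GDF15, TP53I3, BBC3), beside 39.1%. With 9 members these shares are close to those of all genes, so the counts are no result about the members as a set. The median member difference was 0.10, -0.04, 0.10 and 0.12 in these comparisons, and the median over all genes was -0.04, -0.0027, -0.01 and -0.02.

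GDF15 and CDKN1A were both higher in LB DMSO than in A549 DMSO, and their ratio was compared library by library. The ratio of GDF15 to CDKN1A, as TPM, was 3.35, 2.80 and 3.76 in LB amiodarone plus HPbCD, 2.74, 2.18 and 2.95 in LB amiodarone, 1.67, 1.44 and 1.85 in LB DMSO, and 1.26, 1.12 and 1.10 in A549 DMSO. The groups did not overlap except the pair that received amiodarone. The mean log2 ratio was higher by 0.66 in LB amiodarone than in LB DMSO, by 0.99 in LB amiodarone plus HPbCD than in LB DMSO, and by 0.51 in LB DMSO than in A549 DMSO, each with an exact two-sided permutation p of 0.1 (0.133 adjusted over the 4 comparisons), the smallest that 3 against 3 libraries can give. Adding HPbCD to amiodarone moved it by 0.33 (exact permutation p = 0.2, adjusted 0.2).

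**Figure D3:**
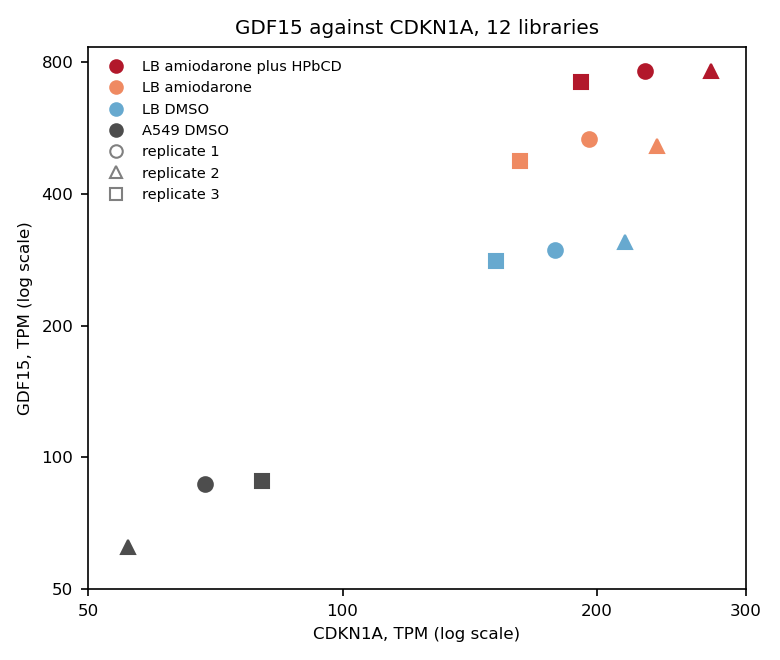
GDF15 against CDKN1A, both in TPM on log axes, 1 point per library, coloured by group and shaped by replicate number. The LB groups stack over a shared CDKN1A range of 152 to 273 TPM at 3 separate GDF15 levels, and the A549 DMSO libraries lie apart at the lower left.

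As a description of likeness, the 3 genes whose log2(TPM + 1) followed CDKN1A most closely over the 12 libraries were P2RX4, ENC1 and APOE, with Pearson correlations of 0.984, 0.982 and 0.980. For GDF15 they were ACOT13, ATP6AP1 and SQSTM1, with 0.996, 0.994 and 0.993. ACOT13 averaged 98.5, 86.0, 63.7 and 33.0 TPM in LB amiodarone plus HPbCD, LB amiodarone, LB DMSO and A549 DMSO. P2RX4 averaged 36.3, 30.9, 29.6 and 17.5 TPM in the same groups. The points share libraries and the same 4 group means, so these correlations largely restate the order of the groups.

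Of 11 genes listed for the control of the pathway, 10 were tested. In LB DMSO against A549 DMSO 1 was higher, MDM4, and 4 were lower, beside 14.2% and 18.2% of all genes. HIPK2, a kinase that phosphorylates p53, had 9.83 TPM in LB DMSO and 14.2 TPM in A549 DMSO (-0.50, adjusted p = 0.0028). CHEK1, the checkpoint kinase, had 35.6 and 46.8 TPM in those groups (-0.38, adjusted p = 0.000369). MDM4, which binds and inhibits p53, was higher by 0.40 (adjusted p = 0.0152, lost without A549 DMSO replicate 3 or LB DMSO replicate 1). That count was 3 without LB DMSO replicate 1 or 2. None of the 10 passed limma's test in LB amiodarone against LB DMSO or in LB amiodarone plus HPbCD against LB amiodarone, where 1 each had an unadjusted p under 0.05, and the alternative limma settings called none either. The shares of all genes that passed there were 8.62% and 4.07%.

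Beyond the members, 28 further textbook p53 targets were all tested. In LB DMSO against A549 DMSO 3 were higher and 5 were lower, beside 14.2% and 18.2% of all genes, and 20 did not pass the test. PLK2, a polo-like kinase, averaged 71.1 TPM in LB DMSO and 119 TPM in A549 DMSO (-0.73, adjusted p = 0.000727). RPS27L averaged 302 and 408 TPM (-0.43, adjusted p = 0.000321). TP53INP1, a regulator of autophagy and cell death, was higher by 0.65 (adjusted p = 0.0126, lost without LB DMSO replicate 2 at 0.0527, when the count fell to 5). The median difference of the 28 was -0.04, the same as that of all genes.

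With amiodarone against vehicle in LB cells, 3 of the 28 were higher and 1 was lower, beside 4.90% and 3.72% of all genes. The other 24 did not pass. PMAIP1 (NOXA), a BH3-only protein like BBC3, read 15.8, 12.8 and 15.8 TPM in LB amiodarone and 10.4, 11.1 and 9.51 TPM in LB DMSO, with no overlap. Its difference was 0.47 (adjusted p = 0.00872). CCNG1, cyclin G1, averaged 84.9 TPM in LB amiodarone and 62.0 TPM in LB DMSO (0.45, adjusted p = 0.00926). The other 2 calls, PERP and FDXR, were each lost without 1 of several libraries, and the count of 4 fell to 2 without LB DMSO replicate 1 or 3 or LB amiodarone replicate 1 or 3.

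With HPbCD added to amiodarone, 4 of the 28 were higher and none was lower, beside 2.71% and 1.36% of all genes. The other 24 did not pass. PMAIP1 read 21.2, 19.7 and 23.0 TPM in LB amiodarone plus HPbCD, above all 3 LB amiodarone libraries. The difference was 0.50 (adjusted p = 0.0106, and 0.0543 without LB amiodarone plus HPbCD replicate 3). PHLDA3, AEN and TNFRSF10B were higher by 0.37, 0.28 and 0.26, calls that were lost without 1 of several libraries, and the count ran over 1 to 4 when single libraries were left out. It moved by over 1.5 times without LB DMSO replicate 1, any LB amiodarone replicate, or LB amiodarone plus HPbCD replicate 1 or 2.

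Against LB DMSO, LB amiodarone plus HPbCD had 6 of the 28 higher and 1 lower, beside 10.1% and 7.81% of all genes. The other 21 did not pass, and the count of 7 became 4 without LB amiodarone plus HPbCD replicate 1. PMAIP1 was higher by 0.98 (adjusted p = 1.95e-05). PHLDA3, an inhibitor of AKT signalling, averaged 96.6 TPM in LB amiodarone plus HPbCD and 64.7 TPM in LB DMSO (0.58, adjusted p = 0.000879). FDXR, ferredoxin reductase of the mitochondria, averaged 36.0 and 48.9 TPM (-0.43, adjusted p = 0.0153, lost without LB DMSO replicate 2 or LB amiodarone plus HPbCD replicate 3). PMAIP1 went the other way between the lines, being lower in LB DMSO than in A549 DMSO by 0.31 (adjusted p = 0.0219, lost without A549 DMSO replicate 2 or LB DMSO replicate 1 or 3).

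**Figure D4:**
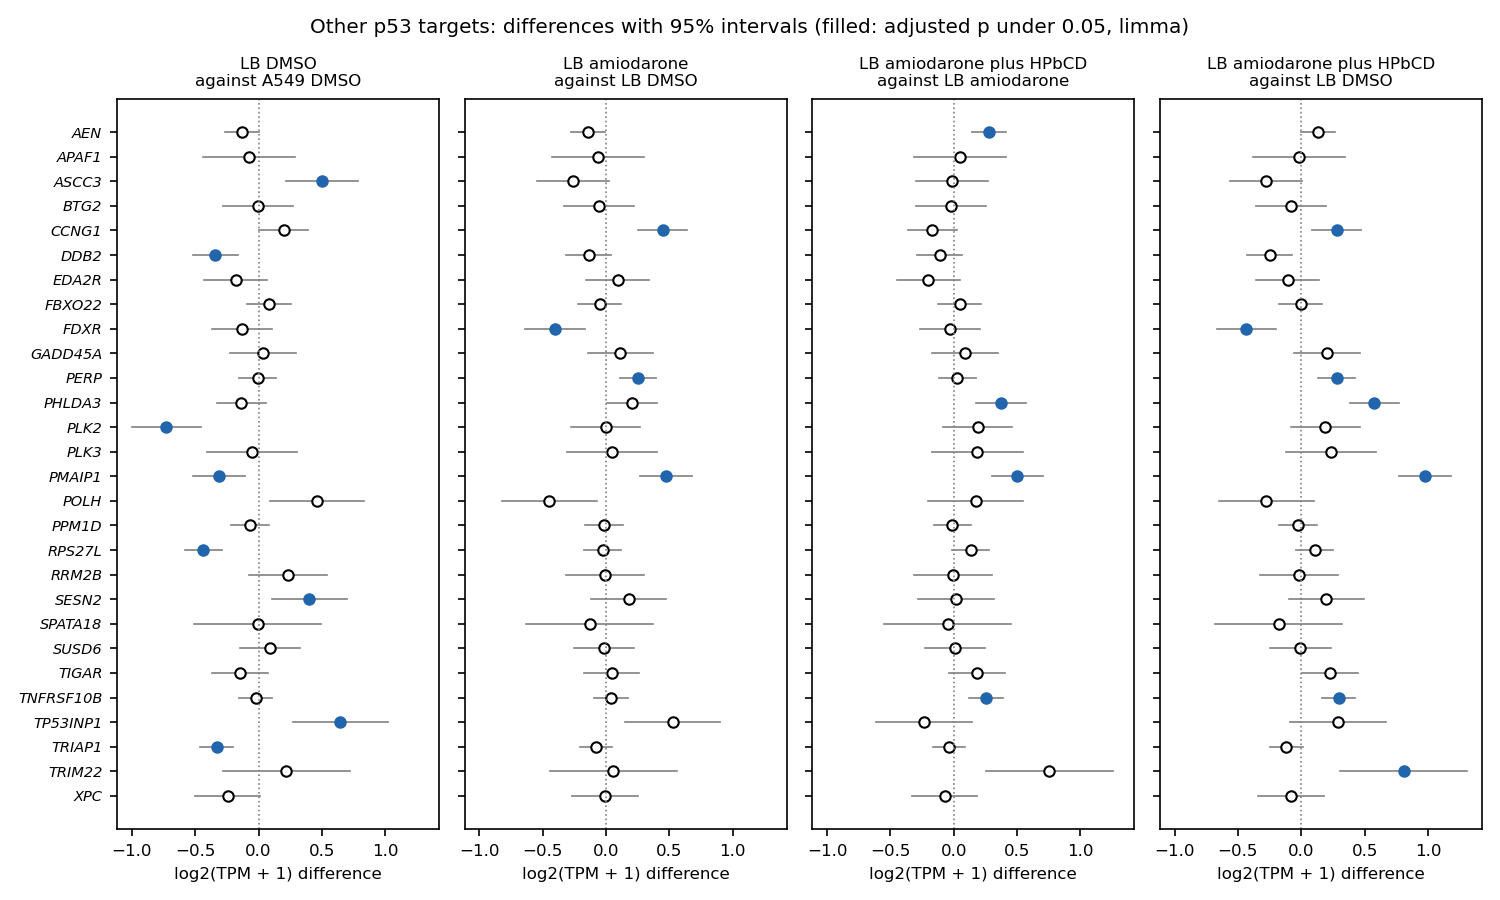
Differences of the 28 further p53 targets on the log2(TPM + 1) scale with 95% intervals, filled where the limma adjusted p was under 0.05. Most intervals cross 0 in each panel, and PMAIP1 is filled in all 4, at -0.31 in LB DMSO against A549 DMSO and at 0.47, 0.50 and 0.98 in the panels of LB groups.

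The next list holds genes of the cell cycle, among them cyclins and kinases that p21 inhibits, other inhibitors, RB1, E2F1, PCNA and the proliferation marker MKI67. Of its 17 genes 15 were tested. In LB DMSO against A549 DMSO 1 was higher and 10 were lower, beside 14.2% and 18.2% of all genes, and 4 did not pass. CCND3, cyclin D3, averaged 111 TPM in LB DMSO and 207 TPM in A549 DMSO (-0.87, adjusted p = 0.000558). CDK6, its kinase partner, averaged 6.36 and 10.3 TPM (-0.62, adjusted p = 0.000476). PCNA, the DNA polymerase clamp that p21 binds, averaged 345 and 477 TPM (-0.46, adjusted p = 0.000344). CDK2 averaged 54.0 and 72.3 TPM (-0.41, adjusted p = 0.00113). In LB amiodarone against LB DMSO CCNB1, cyclin B1, was lower, at 209.7 TPM against 264 TPM (-0.33, adjusted p = 0.00939). The count of 1 was 2 without A549 DMSO replicate 1 or 2, LB DMSO replicate 2, LB amiodarone replicate 2 or 3, or LB amiodarone plus HPbCD replicate 2. With HPbCD added to amiodarone none passed limma's test, and 1 had an unadjusted p under 0.05. The shares of all genes that passed were 8.62% for LB amiodarone against LB DMSO and 4.07% for HPbCD added to amiodarone.

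Against LB DMSO, LB amiodarone plus HPbCD had 1 of the 15 cell cycle genes higher and 5 lower, beside 10.1% and 7.81% of all genes. CCNE1, cyclin E1, averaged 23.5 TPM in LB amiodarone plus HPbCD and 29.3 TPM in LB DMSO (-0.31, adjusted p = 0.0109). That count of 6 ran over 1 to 7 when single libraries were left out, moving by over 1.5 times without LB DMSO replicate 1 or 3 or any LB amiodarone plus HPbCD replicate.

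Among 16 partners of BBC3, BAX and FAS in apoptosis, 15 were tested. In LB DMSO against A549 DMSO 1 was higher and 6 were lower, beside 14.2% and 18.2% of all genes, and 8 did not pass. BCL2L1 (BCL-xL), an antagonist of BAX, averaged 99.4 TPM in LB DMSO and 182 TPM in A549 DMSO (-0.87, adjusted p = 2.24e-06). CFLAR, which blocks signalling from FAS, averaged 25.9 and 39.6 TPM (-0.58, adjusted p = 0.00166). None of the 15 passed limma's test for LB amiodarone against LB DMSO, beside 8.62% of all genes. There 3 had an unadjusted p under 0.05 and 1 was called without LB DMSO replicate 3.

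MCL1, another antagonist of BAX and the main binding partner of PMAIP1, averaged 141 ± 7.27 TPM in LB amiodarone plus HPbCD, 112 ± 1.40 TPM in LB amiodarone and 111 ± 1.83 TPM in LB DMSO (SD, n = 3 each). It was higher in LB amiodarone plus HPbCD than in LB DMSO by 0.34 (adjusted p = 0.00469). Against LB amiodarone it was higher by 0.33 (adjusted p = 0.0208), the single call of the list there, which was lost without any LB amiodarone replicate or LB amiodarone plus HPbCD replicate 1 or 2. BCL2L2 (BCL-w) was higher in LB amiodarone plus HPbCD than in LB DMSO by 0.38 (adjusted p = 0.0151, lost without LB DMSO replicate 2 or LB amiodarone plus HPbCD replicate 1). That count of 2 became 1 without LB amiodarone plus HPbCD replicate 1 and reached 4 at most, moving by over 1.5 times also without LB DMSO replicate 2 or 3. For LB amiodarone plus HPbCD, 17.9% of all genes passed against LB DMSO and 4.07% against LB amiodarone.

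The listed regulators of GDF15 followed it in part. DDIT3 (CHOP) read 67.6, 67.8 and 65.8 TPM in LB amiodarone plus HPbCD, 49.4, 49.2 and 48.7 TPM in LB amiodarone, 24.1, 24.8 and 22.5 TPM in LB DMSO, and 15.6, 15.7 and 12.9 TPM in A549 DMSO. Like GDF15 it had 4 separate groups in the same order. Its differences were 0.66 for LB DMSO against A549 DMSO (adjusted p = 1.92e-05), 1.02 for LB amiodarone against LB DMSO (adjusted p = 2.09e-06), 0.44 for LB amiodarone plus HPbCD against LB amiodarone (adjusted p = 0.00451) and 1.46 for LB amiodarone plus HPbCD against LB DMSO (adjusted p = 6.35e-08). ATF4, which lies upstream of DDIT3, averaged 454 TPM in LB amiodarone plus HPbCD and 455 TPM in LB amiodarone, a difference of 0.00 (adjusted p = 0.989). Its mean was 365 TPM in LB DMSO and 291 TPM in A549 DMSO, and LB amiodarone exceeded LB DMSO by 0.32 (adjusted p = 0.000591). ATF4 is known to be controlled largely at translation, which these values do not measure.

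ATF3, a stress-induced factor that binds the GDF15 gene, averaged 16.2 TPM in LB amiodarone plus HPbCD, 10.4 TPM in LB amiodarone, 6.10 TPM in LB DMSO and 4.54 TPM in A549 DMSO. It was higher in LB amiodarone plus HPbCD than in LB DMSO by 1.28 (adjusted p = 0.00053), and its call for LB amiodarone against LB DMSO (0.67, adjusted p = 0.0464) was lost in 9 of 12 fits without 1 library. EGR1, another inducer, was higher in LB DMSO than in A549 DMSO by 1.15 (adjusted p = 0.000106), at 2.04 TPM against 0.373 TPM. XBP1, of the unfolded protein response, averaged 110.3 TPM in LB DMSO and 62.1 TPM in A549 DMSO (0.84, adjusted p = 0.000607). TFEB, a regulator of lysosomal genes, went down, to 1.96 TPM in LB amiodarone plus HPbCD against 4.35 TPM in LB DMSO (-0.85, adjusted p = 0.00433). The gene of the GDF15 receptor, GFRAL, was listed at 0 in all 12 libraries, and RET, the co-receptor, did not exceed 0.67 TPM.

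**Figure D5:**
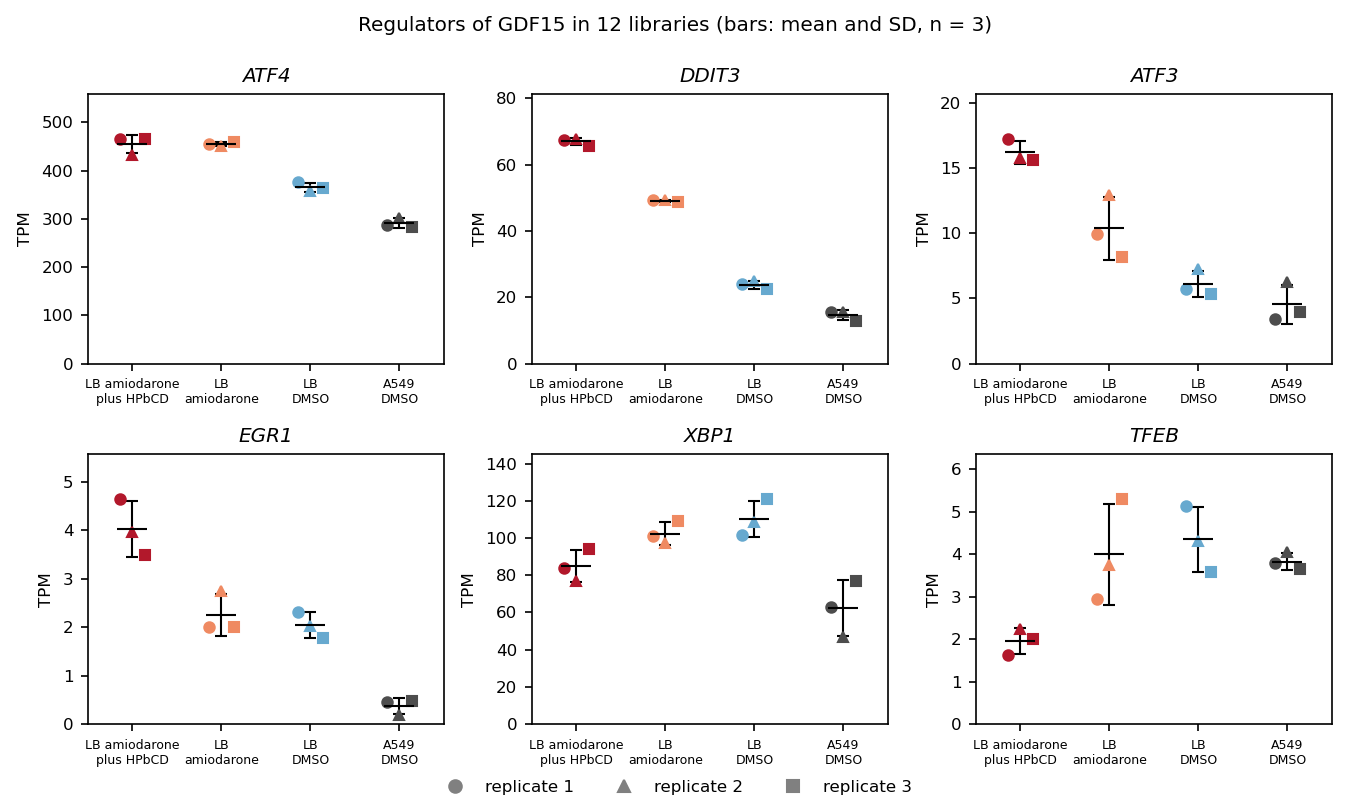
TPM of 6 listed regulators of GDF15 (linear axes from 0) in the 4 groups, with 1 point per library and bars for the mean and SD (n = 3). DDIT3 repeats the 4 separate levels of GDF15, at 67.1, 49.1, 23.8 and 14.8 TPM on average, while ATF4 is level between the pair of groups with amiodarone at 454 and 455 TPM.

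Of 12 listed genes around GDF15, 10 were tested. In LB DMSO against A549 DMSO 4 were higher and none lower, in LB amiodarone against LB DMSO 3 were higher and none lower, in LB amiodarone plus HPbCD against LB amiodarone 2 were higher and 1 lower, and in LB amiodarone plus HPbCD against LB DMSO 4 were higher and 1 lower. The third of these counts ran over 1 to 4 when single libraries were left out, and moved by over 1.5 times without LB DMSO replicate 2, LB amiodarone replicate 3 or any LB amiodarone plus HPbCD replicate. In the same order of comparisons, 32.4%, 8.62%, 4.07% and 17.9% of all genes passed the test. The list was chosen with values of DDIT3 and ATF4 in these libraries known, so it is not independent evidence of a direction.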

How the data were processed

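Libraries were stranded mRNA preparations, per the labels. TPM values are as deposited by the authors, 1 per gene symbol and library; the submitters' processing notes name STAR 2.7.3a, RSEM 1.3.1 and the build GRCh38, and no source used here gives the annotation release. RSEM divides reads that fit several genes by estimate, which makes genes with pseudogenes less certain. Of 57189 rows, 37 lacked a value in at least 1 library and were left out. TPM keeps no depth, so no count model and no counting interval was used.

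Values were taken as log2(TPM + 1), a pseudocount of 1, and genes with a mean of 1 TPM or more were tested with limma 3.58.1 in R 4.3.3, in 1 model of 4 groups and 12 libraries (8 residual degrees of freedom) with a mean-variance trend. Two-sided p-values got a Benjamini-Hochberg adjustment over all 13968 genes within each comparison. The script was tested on simulated data. Positions came from GENCODE 29 and promoter sequences from RefSeq. Named were the members, up to 4 genes with the largest change per list among those past the test, MDM4, ATF4 and DDIT3, and the 3 genes most like CDKN1A and GDF15. Listed genes past the test but not printed were left out for length or are not reported here. CDKN2A, FASLG, GFRAL and RET were named after their values were seen. Members and lists were chosen with earlier results of these data known. The list of paralogues had 5 of 7 genes tested. In LB DMSO against A549 DMSO 2 were higher, SESN2 and the MDM4 already counted above, beside 14.2% of all genes. By limma none was called in the other 3 comparisons, where none had an unadjusted p under 0.05. There 8.62%, 4.07% and 17.9% of all genes passed. Without 1 library those 2 calls ran over 0 to 2.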

Additional observations from a re-analysis of the deposited data

How the results depend on the processing

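Alternatives were pseudocounts of 0.1 and 5, no filter, a stricter one (mean of 5 TPM), scaling by median of ratios, quantile normalization, no trend, robust variance, a fit of the 2 groups alone, a replicate block, and each library left out. The call of GDF15 was kept in all of these for 3 comparisons, and for HPbCD added to amiodarone in all but the fit without LB amiodarone replicate 3. CDKN1A, BAX and SESN1 in LB DMSO against A549 DMSO, and TP53I3 in LB amiodarone plus HPbCD against LB DMSO, kept theirs in all. Leaving out 1 library gave 630 to 1493 genes past the test for LB amiodarone against LB DMSO (1204 with all) and 282 to 827 for LB amiodarone plus HPbCD against LB amiodarone (568 with all), and 1 to 2 and 0 to 2 members. The lowest counts came without replicate 3 of LB DMSO for the first and without replicate 1 of LB amiodarone plus HPbCD for the second. The highest gene counts, 1493 and 827, both came without A549 DMSO replicate 2, which is in neither comparison but enters the pooled spread. The cause was not tested.

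By the rule that every same-numbered pair correlate over 0.1, the replicate numbers were not taken as pairs, though the labels leave this unsettled. Same-numbered libraries of 2 groups correlated in their deviations at -0.027 to 0.212, and 5, 4, 4 and 3 of 6 libraries correlated best with their own number in LB DMSO against A549 DMSO, LB amiodarone against LB DMSO, LB amiodarone plus HPbCD against LB amiodarone, and LB amiodarone plus HPbCD against LB DMSO. With the replicate block, 4581, 1198, 606 and 2558 genes passed, and no member call changed. Fits of the 9 LB libraries alone were chosen after seeing the data. With a replicate block they called 3, 3 and 4 members in the last 3 comparisons, beside 1721, 966 and 3180 of all 13968 genes. Without the block they called 2 members in each, beside 1551, 824 and 2910 genes. The main model called 1204, 568 and 2495 genes there, so calls rose over all genes. These counts are no result about the members as a set. CDKN1A had adjusted p-values of 0.0392, 0.00496 and 0.000229 with that block, and of 0.727, 0.516 and 0.189 without it. TP53I3 in the 2 single steps had 0.0027 and 0.0025 with it, and BBC3 in LB amiodarone plus HPbCD against LB DMSO had 0.0335.

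Signs changed for small differences that did not pass the test with all 12 libraries. BAX for HPbCD added to amiodarone was -0.0024 after quantile normalization. With 1 library left out, BBC3 in LB DMSO against A549 DMSO ran over -0.013 to 0.18, and ZMAT3 there over -0.16 to 0.032. In LB amiodarone against LB DMSO, CDKN1A ran over -0.017 to 0.25, MDM2 over -0.080 to 0.0053 and SESN1 over -0.15 to 0.012. In LB amiodarone plus HPbCD against LB DMSO, FAS ran over -0.13 to 0.080 and ZMAT3 over -0.091 to 0.30, and against LB amiodarone ZMAT3 ran over -0.35 to 0.044. The unknown read depth limits what can be said of ZMAT3, FAS and SESN1, which have low TPM.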
